A study of Mus musculus with 6 samples.

Results

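Adult mouse pituitary cells marked by Lhbcre were set against adult cells marked by Ghcre, with 1 library on each side. The Lhbcre library was made from 7 pooled glands of Lhbcre x ROSAYFP mice and the Ghcre library from 12 pooled glands of Ghcre x ROSAYFP mice, all aged 7 weeks. Glands were dispersed with collagenase, the fluorescent fraction was collected by FACS, and its RNA was depleted of ribosomal RNA and sequenced. The reporter marks a cell once Cre has been active in it or in a cell it descends from, so each fraction is defined by the history of the Lhb or Gh driver and not by present hormone content. Neither sex nor strain background of the mice is stated in the labels. The series holds 6 libraries, and adult whole gland (1 nontransgenic gland) and adult Tshbcre cells (42 pooled glands) are cited beside the Lhbcre and Ghcre values where they give scale. Because each side is a single pool, there is no replicate, no p-value and no error between animals, and a difference cannot be told apart from one between pools or library preparations.

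Genes were taken into the comparison when both tables listed them. The table of the Ghcre library ends within chromosome 5, so 32913 of the 50348 gene names found in any of the 6 tables could be compared. The value of a gene is its summed FPKM (fragments per kilobase of transcript, scaled to the mapped fragments), divided by 1 factor per library and called scaled FPKM here. Of the compared genes, 11298 reached 1 scaled FPKM in at least 1 of the 2 libraries. A gene was counted as apart when log2(scaled FPKM + 1) differed at least 4-fold, a scale that understates the difference of low genes. Neither Gh nor Prl was listed in either table used here, and Lhb, Gnrhr, Ghrhr, Foxl2 and Gata2 are among the genes not listed for Ghcre, so none of them was compared. The driver gene Lhb stood at 2198 scaled FPKM in the Lhbcre library, at 637 in whole gland and at 2904 in adult Tshbcre cells.

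Gonadotropes secrete luteinizing hormone and follicle-stimulating hormone, each a pair of the shared alpha subunit Cga with a specific beta subunit, Lhb or Fshb. The nuclear receptor Nr5a1 (steroidogenic factor) is the transcription factor that defines them in the pituitary. Somatotropes secrete growth hormone and depend on the POU-domain factor Pou1f1, which also serves lactotropes and thyrotropes. Pappa2 is a secreted protease that cleaves IGF-binding proteins, and Gal is the neuropeptide galanin.

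Promoters of 4 marker genes are shown because NR5A and POU1F1 proteins bind known DNA motifs and mark the lineages compared. Only promoters that held a match are shown: the promoter of Fshb and a second Pou1f1 promoter held neither motif in this window. Nr5a1 had no promoter in the reference used and was not searched. Each sequence is the 250 bases upstream of the annotated start from RefSeq (GRCm38.p6), 5′ to 3′ on the strand of the gene. Capitals mark a match to CAAGGNCA (NR5A) in Cga and Gal and to TATNCAT (POU1F1) in Pou1f1 and Pappa2, searched on both strands.
Cga, chr4:34893529-34893778, plus strand: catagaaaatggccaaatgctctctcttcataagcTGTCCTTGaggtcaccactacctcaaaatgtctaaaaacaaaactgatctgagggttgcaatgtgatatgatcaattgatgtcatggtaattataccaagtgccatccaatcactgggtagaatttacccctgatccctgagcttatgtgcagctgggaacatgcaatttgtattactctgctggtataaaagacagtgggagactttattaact
Gal, chr19:3414545-3414794, minus strand: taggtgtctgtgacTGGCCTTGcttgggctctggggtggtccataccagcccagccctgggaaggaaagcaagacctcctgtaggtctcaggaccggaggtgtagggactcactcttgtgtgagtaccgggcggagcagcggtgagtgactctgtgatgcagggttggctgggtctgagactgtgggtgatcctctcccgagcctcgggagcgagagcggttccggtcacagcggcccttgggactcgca
Pou1f1, chr16:65520262-65520511, plus strand: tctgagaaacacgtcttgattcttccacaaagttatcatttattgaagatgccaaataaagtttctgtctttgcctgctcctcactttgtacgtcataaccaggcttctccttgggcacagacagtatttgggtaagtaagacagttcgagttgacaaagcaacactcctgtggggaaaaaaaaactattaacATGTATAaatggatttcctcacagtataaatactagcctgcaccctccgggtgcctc
Pappa2, chr1:158958176-158958425, minus strand: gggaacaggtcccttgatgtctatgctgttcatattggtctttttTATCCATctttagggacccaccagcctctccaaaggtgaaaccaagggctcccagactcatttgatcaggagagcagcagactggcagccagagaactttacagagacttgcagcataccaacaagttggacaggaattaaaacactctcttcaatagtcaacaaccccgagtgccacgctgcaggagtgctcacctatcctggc

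The Cga match lies 215 to 208 bases upstream of the start and the Gal match 236 to 229 bases upstream, both on the opposite strand. The Pou1f1 match lies 57 to 51 bases upstream on the opposite strand, and the Pappa2 match 205 to 199 bases upstream on the same strand. Such matches are common: CAAGGNCA occurred in 5.53% and TATNCAT in 7.92% of all 32851 RefSeq promoters of this length. Among the 65 protein-coding genes that stood 4-fold higher in Lhbcre on both measures given further on, 52 had a promoter in the table, and 3 of these (5.77%: Cga, Gal and Strbp) held CAAGGNCA while 0 held TATNCAT. Among the 170 protein-coding genes 2-fold higher in Ghcre on both measures, 129 had a promoter, 6 (4.65%) held CAAGGNCA and 4 (3.1%) held TATNCAT. The shares with CAAGGNCA were thus near that of all promoters on both sides, and those with TATNCAT were below it. The units differ, however. The gene sets count only the first promoter of each protein-coding gene, whereas the background counts every promoter and was not limited by gene class. A match is a description of letters and not a binding site.

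Among protein-coding genes, Cga and Fshb separated the 2 libraries widely, and Tshb much less. Cga (chromosome 4, 34893779 to 34907374 on mm39, the build of all gene positions here) stood at 3649 scaled FPKM in Lhbcre and at 18.7 in Ghcre. The deposited bounds, which cover read counting and assignment within a library only, were 3496 to 3802 and 17.3 to 20.2. This was a 185-fold difference, 7.53 on the log2 scale, and the largest of any protein-coding gene above 0 in both libraries. Whole gland held 805 and Tshbcre cells 6546. Fshb (chromosome 2, 106886331 to 106889996) stood at 216 in Lhbcre and was listed at 0 in Ghcre, with an upper bound of 0.012. Adding unnamed transcripts assembled over the gene brought Ghcre to 2.75 and left Lhbcre at 216. Fshb in Lhbcre cells was close to whole gland, at 180, and below Tshbcre cells, at 928. Cga in Lhbcre cells was well above whole gland. Tshb, the beta subunit of thyrotropin, stood at 9.05 in Lhbcre and 3.87 in Ghcre, both under the 33.1 of whole gland, and at 9.05 and 7.35 with assembled transcripts added.

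Nr5a1 (chromosome 2, 38582668 to 38604554) stood at 55.5 scaled FPKM in Lhbcre, with bounds of 52.8 to 58.1, and at 0.0874 in Ghcre, with bounds of 0.0455 to 0.136. The difference was 5.70 on the log2 scale. Whole gland held 5.08, between the 2 sorted fractions. Gal (chromosome 19, 3459915 to 3464544) stood at 19.96 in Lhbcre and 0.935 in Ghcre, a log2 difference of 3.44, and at 2.71 in whole gland. With assembled transcripts added, Gal in Ghcre was 2.78 and its log2 difference 2.47.

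Pou1f1 (chromosome 16, 65317398 to 65331904) was lower in Lhbcre, at 18.8 scaled FPKM with bounds of 17.5 to 20.1, than in Ghcre, at 40.3 with bounds of 38.4 to 42.3. The log2 difference of -1.06 was short of 4-fold, and the Ghcre level was near the 39.0 of whole gland. This order depended on the transcripts counted: with assembled transcripts added, Pou1f1 was 67.2 in Lhbcre and 58.8 in Ghcre. Pappa2 (chromosome 1, 158539297 to 158788019) was listed at 0 in Lhbcre and stood at 32.8 in Ghcre, against 18.7 in whole gland. With assembled transcripts added, Lhbcre held 7.49 and the difference was just under 4-fold. Of the markers high in Lhbcre, only Cga kept a level well above 1 in Ghcre on annotated transcripts, while Pou1f1 transcripts were abundant in both.

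**Figure D1:**
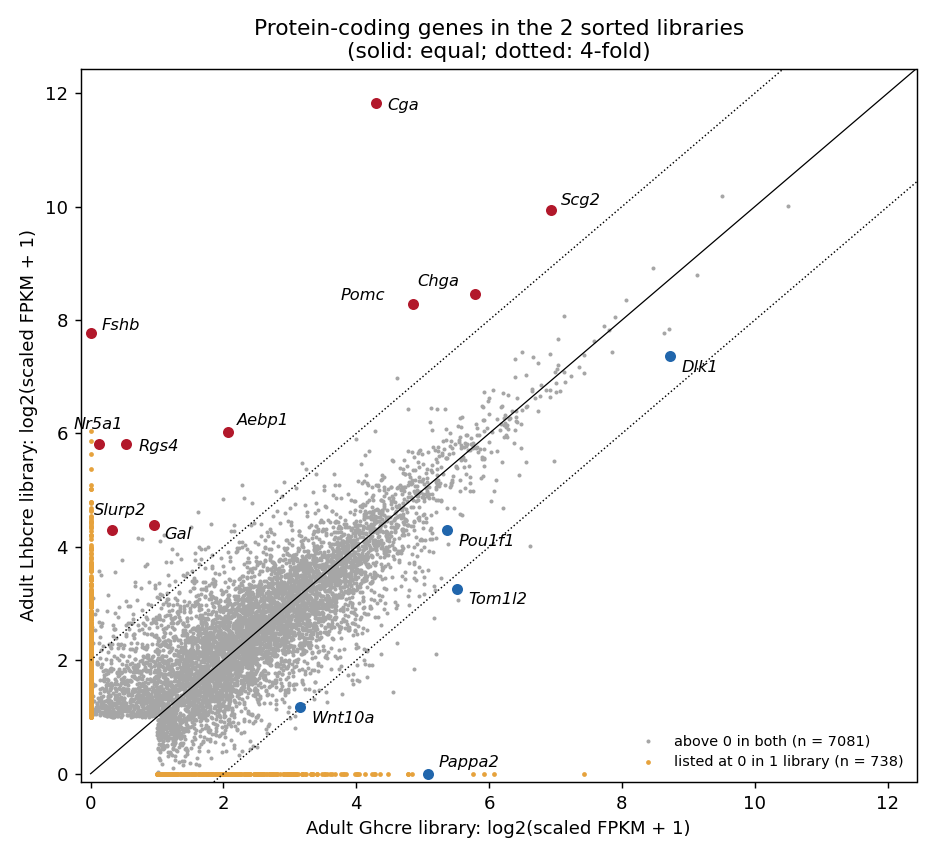
Log2(scaled FPKM + 1) of protein-coding genes at 1 scaled FPKM or more, with adult Ghcre on the x axis and adult Lhbcre on the y axis. Each point is 1 gene, 7081 of them above 0 in both libraries (grey) and 738 listed at 0 in 1 (orange), and Cga, Fshb, Nr5a1 and Rgs4 lie far above the upper 4-fold line while Dlk1 and Pou1f1 lie between the lines.

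Across all 11298 genes, 475 were at least 4-fold higher in Lhbcre (4.2%) and 591 at least 4-fold higher in Ghcre (5.23%). With the libraries scaled to an equal sum over shared genes in place of the median ratio, the counts were 271 and 914, the median of all genes moving from -0.0019 to -0.77. Most of these genes were listed at 0 in the lower library, namely 349 of the 475 and 548 of the 591. The 2 directions also differed in gene class. Of the genes higher in Lhbcre, 361 were protein-coding (4.62% of 7819), and of those higher in Ghcre, 183 were (2.34%). Short RNA genes made up much of the Ghcre side, with 120 of 180 snoRNA, 86 of 215 snRNA, 50 of 63 miRNA and 30 of 31 tRNA genes. Pseudogenes added 83 of 1575. On the Lhbcre side these classes held 25, 8, 7, 1 and 26 genes. Most on the Ghcre side were listed at 0 in Lhbcre (119 snoRNA, 77 snRNA, 50 miRNA and 30 tRNA). Of 37 snoRNA genes above 0 in both, 8 were 4-fold higher in Lhbcre and 1 in Ghcre, so that class had no settled side.

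**Figure D2:**
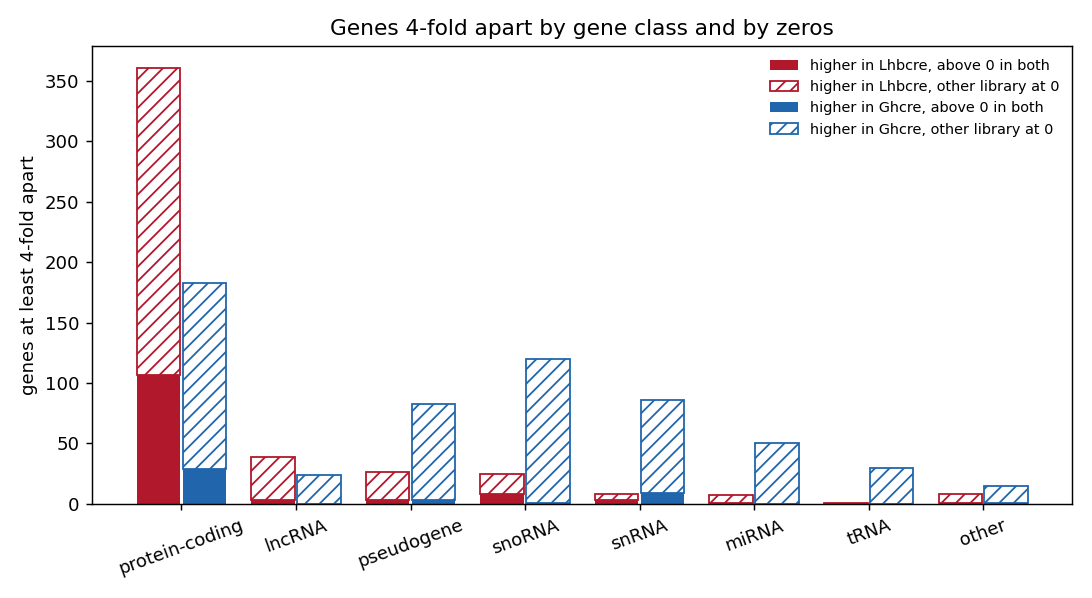
Number of genes at least 4-fold apart by gene class, with red bars for genes higher in Lhbcre and blue bars for genes higher in Ghcre. The solid part of a bar counts genes above 0 in both libraries and the hatched part genes listed at 0 in the lower library, which make up most of every tall bar, from 254 of 361 protein-coding genes higher in Lhbcre to 119 of 120 snoRNA genes higher in Ghcre.

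A listed value of 0 was not read as absence. All 154 protein-coding genes that were 4-fold higher in Ghcre and at 0 in Lhbcre had an unnamed transcript within their span in the Lhbcre table, as did 243 of the 254 in the other direction in the Ghcre table. With assembled transcripts added, 27 and 105 of them remained 4-fold apart. The addition itself was uneven, because 4.25% of the unnamed transcripts in the Lhbcre table and 16.7% of those in the Ghcre table reached 200 nt and could be used. Over all gene classes above 0 in both libraries, 126 of 9731 were 4-fold higher in Lhbcre (1.29%) and 43 in Ghcre (0.442%), and 83 (0.853%) and 15 (0.154%) were so again with assembled transcripts added. Over protein-coding genes above 0 in both libraries, 107 of 7081 were 4-fold higher in Lhbcre (1.51%) and 29 in Ghcre (0.41%). Those 4-fold apart on annotated transcripts and again with assembled transcripts added numbered 65 (0.918%) and 1 (0.0141%). At 2-fold the counts were 733 (10.4%) and 412 (5.82%) on annotated transcripts, and 351 (4.96%) and 170 (2.4%) on both measures. Most genes were alike: 83.8% of protein-coding genes above 0 in both libraries lay within 2-fold, with the 5th and 95th percentiles of the log2 difference at -1.06 and 1.37.

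Several genes of receptor signalling were among those furthest higher in Lhbcre. Genes named here that are neither among the 12 furthest apart nor in a list were picked from the 65 after their values were seen. Rgs4, an inhibitor of signalling through G alpha q and G alpha i, stood at 55.5 scaled FPKM in Lhbcre and 0.45 in Ghcre, a log2 difference of 5.28, against 7.00 in whole gland. Adcy8, a calcium-stimulated adenylyl cyclase, stood at 7.58 and 0.0219, and whole gland held 0.0594. Slurp2, a small secreted Ly6 protein, stood at 18.7 and 0.253. Its neighbour on chromosome 15, Lynx1, which modulates nicotinic receptors, stood at 16.1 and 1.05. The nicotinic receptor subunit Chrna4 stood at 6.40 and 0.0648, and the glycine receptor subunit Glra1 at 4.81 and 0.0427. The dopamine receptor Drd3 stood at 5.07 and 0.116. Whole gland was under 1 for Slurp2, Chrna4, Glra1 and Drd3, and each of them was several-fold higher in the Lhbcre fraction than there. They were not particular to Lhbcre cells. Adult Tshbcre cells held Chrna4 at 8.24 and Glra1 at 5.11, above the Lhbcre values, and Drd3 at 4.10 and Slurp2 at 4.23, below them.

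Genes of matrix, adhesion, metabolism and secreted factors were also among the 65. Aebp1, a secreted carboxypeptidase-like protein of connective tissue, stood at 63.9 scaled FPKM in Lhbcre, 3.20 in Ghcre and 3.34 in whole gland. Lamb1, a laminin chain of basement membrane, stood at 11 in Lhbcre and 0.0922 in Ghcre. Dsp, the desmosomal protein desmoplakin, stood at 7.89 and 0.199. The angiogenic factor Vegfa stood at 20.2 and 2.52, and its relative Pgf at 7.33 and 0.625. Pygm, muscle glycogen phosphorylase, stood at 10.4 and 0.111. Dlgap1, a postsynaptic scaffold protein, stood at 12.6 and 0.388. Il6st, the signal-transducing subunit of IL-6 family receptors, was abundant in both, at 43.6 and 8.07.

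Few protein-coding genes on the Ghcre side stood apart once zeros were set aside. Tom1l2, an endosomal sorting protein, was the only protein-coding gene 4-fold higher in Ghcre on both measures, at 44.9 scaled FPKM against 8.51 in Lhbcre, and 39.4 in whole gland. Its locus is shared with the lncRNA gene Gm38501, so no assembled transcripts were added to its Lhbcre value. For Tom1l2 the second measure therefore repeated the first in Lhbcre and was no further check. The genes named next are therefore taken from the 12 with the largest difference among the 170 that were 2-fold higher on both measures, a choice made after the values were seen. Myo15, an unconventional myosin, stood at 2.11 in Lhbcre and 15.5 in Ghcre. Cebpd, a bZIP transcription factor, stood at 2.76 and 15.2. Egf, epidermal growth factor, stood at 1.49 and 9.29, and Il1r1, the interleukin-1 receptor, at 0.391 and 4.65. Wnt10a, a Wnt ligand, stood at 1.27 and 7.92, with 6.87 in whole gland. Agtr1a, the type 1 angiotensin receptor, stood at 1.12 and 6.84, and Rap1gap, a GTPase-activating protein for Rap1, at 8.50 and 35.5. With assembled transcripts added, the log2 differences were nearer 0 for Myo15 (-1.21), Cebpd (-1.47) and Egf (-1.01).

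Enzymes of sterol and fatty acid synthesis were among these Ghcre-higher genes. Hmgcs1, which makes the HMG-CoA used for cholesterol, stood at 1.66 scaled FPKM in Lhbcre and 12.7 in Ghcre, with 11.1 in whole gland, or 5.76 and 15.7 in the fractions with assembled transcripts added. Idi1, a later enzyme of the same route, stood at 0.856 and 3.64. The desaturases Scd1 (0.795 and 5.34) and Fads1 (7.79 and 26.4) and the acyl-CoA synthetase Acsl3 (4.79 and 14.7, a locus shared with Utp14b) lay the same way. These enzymes were picked out after their values were seen and no list of lipid genes was drawn up, so no count over that pathway is given.

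**Figure D3:**
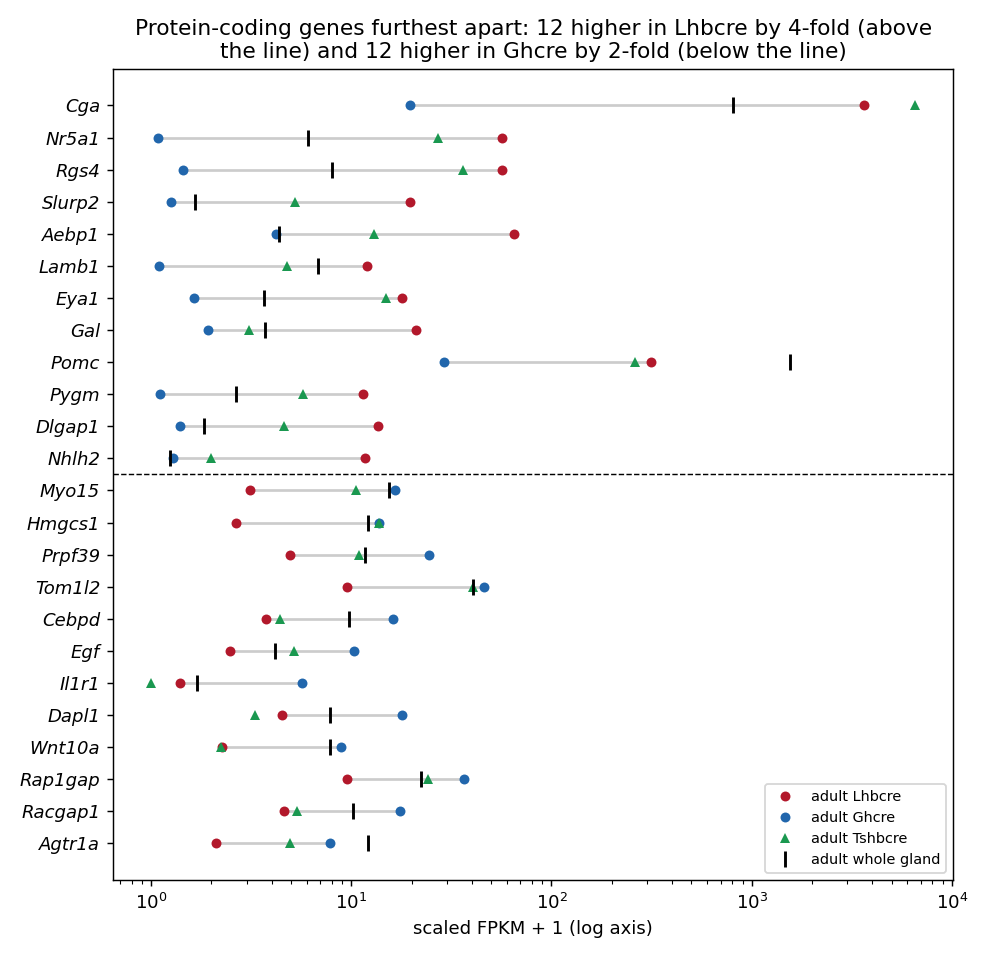
Scaled FPKM + 1 (log axis) of 12 protein-coding genes higher in Lhbcre by 4-fold and 12 higher in Ghcre by 2-fold on both measures, in adult Lhbcre (red), Ghcre (blue), Tshbcre (green triangles) and whole gland (black bars), 1 library each. Whole gland lies between the 2 fractions for most genes, and Pomc, at 1555 in whole gland, lies above both.

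Lists of genes for each pituitary cell type were then described by their members. Of 26 gonadotrope genes, 17 were listed in both tables and 13 reached 1 scaled FPKM, of which 12 had the higher level in Lhbcre. For 6 of the 12 this side followed from the filter, since they reached 1 scaled FPKM in Lhbcre only, and likewise in all lists given here counts of sides and medians describe the members and support nothing. Their median log2 difference was 2.0, against -0.0019 over all 11298 genes. List medians move with the scaling: with FPKM as deposited the median of all genes was 0.30 and that of this list 2.03, and with equal sums they were -0.77 and 1.49. The 7 members 4-fold higher in Lhbcre (4.62% of all protein-coding genes, and 0 members in Ghcre against 2.34%) were Fshb, Cga, Nr5a1 and Gal, described above, and Nhlh2, Inhbb and Isl1. Nhlh2, a helix-loop-helix factor of the reproductive axis, stood at 10.7 in Lhbcre and 0.294 in Ghcre, with 0.245 in whole gland. Inhbb, the activin and inhibin beta B subunit, stood at 4.84 and 0.273. Isl1, a LIM homeodomain factor, stood at 3.88 and 0.218, on the 4-fold threshold. The factors shared by several pituitary lineages differed less, Pitx1 at 32.2 and 17.8 and the estrogen receptor Esr1 at 35.7 and 19.9. Lhx3 stood at 14.2 and 7.74 on annotated transcripts but at 25.2 and 25.0 with assembled ones, and the inhibin alpha subunit Inha at 10.8 and 6.26, or 13.6 and 13.1. Egr1, the immediate early factor that acts downstream of GnRH, was the 1 member with the higher annotated level in Ghcre, at 51.7 against 33.7, and with assembled transcripts added it was 51.7 against 70.2. The remaining 4 listed members were all under 1 scaled FPKM.

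Of 15 somatotrope genes, 13 were listed and 11 reached 1 scaled FPKM, with a median log2 difference of -1.06 that became -0.24 with assembled transcripts added. Of these, 7 had the higher level in Ghcre, and Pappa2 was the only 4-fold member (2.34% of all protein-coding genes in that direction). Dlk1, an imprinted transmembrane protein of growth hormone cells, stood at 423 in Ghcre and 164 in Lhbcre, against 522 in whole gland. The thyroid hormone receptor Thrb stood at 17.7 in Ghcre and 7.45 in Lhbcre, and the retinoid receptor Rxrg at 13.2 and 4.91. Among somatostatin receptors, Sstr2 was higher in Ghcre (1.66 against 0.175), whereas Sstr3 was higher in Lhbcre (11.4 against 4.45). Neurod4 stood at 13.3 in Lhbcre and 15.8 in Ghcre. Foxo1 was higher in Lhbcre on annotated transcripts, at 6.22 against 1.46, and lower with assembled ones, at 9.88 against 11.2. Among the members compared, the contrast was thus mostly one of degree, with transcripts of most of them present in the Lhbcre library. Gh and Ghrhr could not be compared, so this does not describe the somatotrope lineage as a whole.

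**Figure D4:**
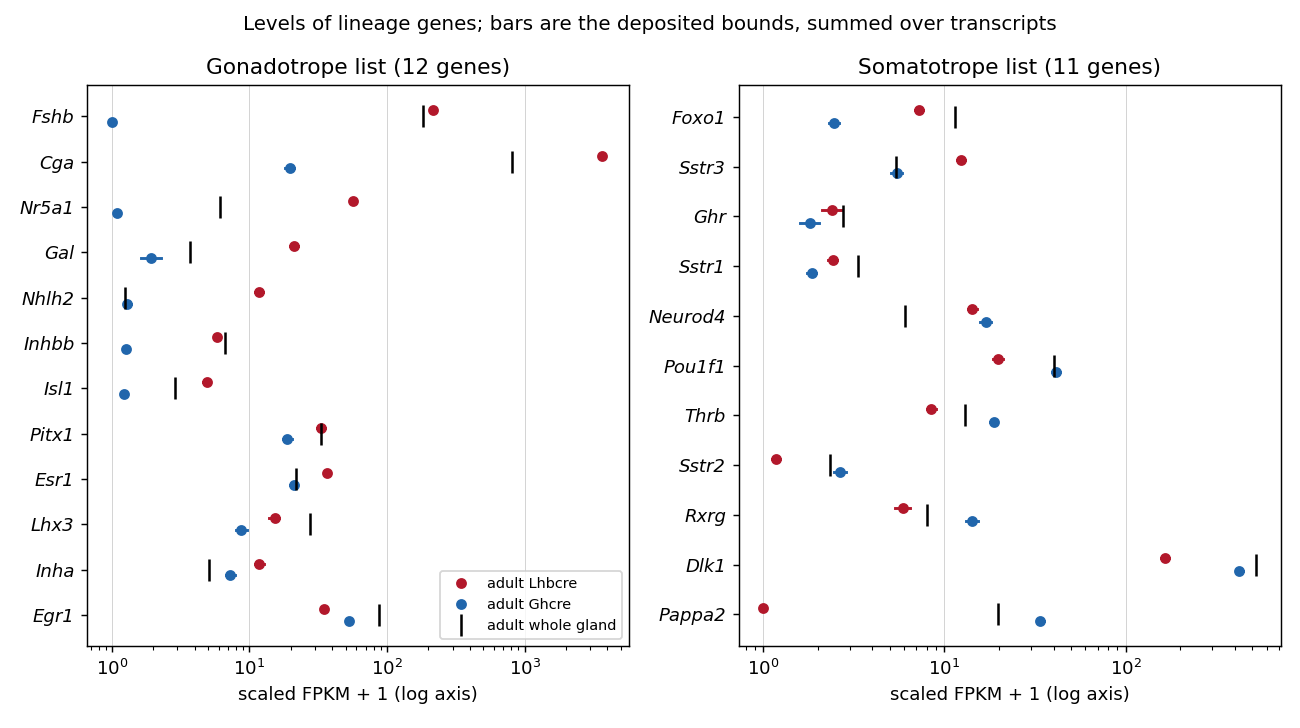
Scaled FPKM + 1 (log axis) of 12 of the 13 gonadotrope genes and the 11 somatotrope genes at 1 scaled FPKM or more, in adult Lhbcre (red) and Ghcre (blue), with deposited bounds as horizontal lines and whole gland as a black bar. The upper 7 gonadotrope genes lie at least 4-fold apart, all but Cga under 1 scaled FPKM in Ghcre, whereas of the somatotrope genes only Pappa2 does.

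Markers of corticotropes, and the few of melanotropes that reached 1 scaled FPKM, were mostly higher in the Lhbcre library. Among 8 corticotrope genes at 1 scaled FPKM or more, 5 were 4-fold higher in Lhbcre (4.62% of all protein-coding genes) and 1, Crhbp, in Ghcre (2.34%). Their median log2 difference was 2.16, or 1.42 with assembled transcripts, when 2 of the 5, Pomc and Neurod1, were still 4-fold higher. Of the 8, 4 reached 1 scaled FPKM in Lhbcre only and 1 in Ghcre only. Pomc, the precursor of ACTH, stood at 312 in Lhbcre, 27.9 in Ghcre and 1555 in whole gland. Tbx19, the factor that defines the lineage, stood at 3.96 and 0.0888, or 3.96 and 0.53 with assembled transcripts, Neurod1 at 6.05 and 0.045, and the CRH receptor Crhr1 at 1.52 and 0. Neurod1 in Lhbcre was above the 0.333 of whole gland, while Pomc, Tbx19 and Crhr1 were below it. Nr4a1 was listed at 0 in Ghcre against 31.6 in Lhbcre, and with assembled transcripts the values were 54.8 and 122. Crhbp went from 0 and 4.22 to 21.7 and 10.3 in Lhbcre and Ghcre on the same addition, so its order is not settled. The summed level of the corticotrope list was 402 in Lhbcre, 49.1 in Ghcre and 1668 in whole gland. For the melanotrope list it was 34.0, 3.79 and 42.7, most of it in both fractions from the proconvertase Pcsk2 (27.7 and 2.96). Of 6 melanotrope genes listed, 3 reached 1 scaled FPKM, 2 of them in Lhbcre only. The melanotrope lineage factor Pax7 was low in both, at 0.165 in Lhbcre and 0.099 in Ghcre. The thyrotrope and lactotrope lists had members on both sides, 6 higher and 5 lower in Lhbcre (median 0.37) and 4 higher and 3 lower (median 0.55), some of them shared with the gonadotrope and somatotrope lists. Eya3 stood at 1.37 in Lhbcre and 5.12 in Ghcre, or 11.5 and 12.2 with assembled transcripts, Angpt1 at 3.78 and 7.96, Six6 at 8.08 and 13.6, and the prolactin receptor Prlr at 12.5 and 8.25. Fewer cells of a type and less RNA per cell cannot be told apart in such sums.

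Summed levels of non-endocrine markers were larger in Lhbcre, though single markers lay on both sides. Of 8 endothelial genes listed, 6 reached 1 scaled FPKM, all of them in Lhbcre only, so that their side followed from the filter, with Pecam1 at 2.55 and 0.50 and Egfl7 at 5.29 and 0.513, and the list summed to 20.1 in Lhbcre, 2.53 in Ghcre and 64.7 in whole gland. Eng and Cldn5 were at 0 in Ghcre. Of 11 immune genes listed, 5 reached 1 scaled FPKM, 3 of them in Lhbcre only, and the list summed to 38.2, 4.89 and 139. Cd74, the MHC class II invariant chain, stood at 26.2 in Lhbcre, 0 in Ghcre and 63.9 in whole gland, and Ptprc at 0.29 and 0.0699 in the fractions. The mesenchymal list, with 3 of 10 listed genes at 1 scaled FPKM, summed to 33.0, 13.8 and 249, and its median log2 difference was 0.14. Igfbp5, at 26.1 and 7.46, was its most abundant member in both fractions, while Dcn was higher in Ghcre, at 2.22 against 1.09, Col3a1 was at 0 in Ghcre and Lum at 0 in Lhbcre. The stem and folliculostellate list, with 6 of 14, summed to 40.0, 30.7 and 112, with its defining factor Sox2 at 0.454 and 0.294, and with Notch2 (3.02 and 3.90) and Krt18 (13.4 and 14.1) higher in Ghcre. The alpha globins Hba-a1 and Hba-a2, near-identical copies that share reads, summed with Slc4a1 to 46.9, 41.3 and 685. Each of these sums was below whole gland in both fractions, and all were larger in Lhbcre than in Ghcre. Igfbp5 made up most of the mesenchymal sum in both fractions, and Cd74 most of the immune sum in Lhbcre. The stem and globin sums were close in the 2 fractions. Their order was not checked under other scalings, of which equal sums moved the median of all genes to -0.77. The part of non-endocrine cells in the higher Lhbcre values of genes such as Lamb1, Vegfa, Aebp1 and Igfbp3 was not tested.

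Secretory genes divided between the fractions by member. Of 18 granin and prohormone-processing genes, 11 were listed and reached 1 scaled FPKM, with 4 being 4-fold higher in Lhbcre (4.62% of all protein-coding genes), 1 in Ghcre (2.34%) and a median log2 difference of 0.62. Secretogranin II (Scg2) stood at 980 in Lhbcre, 122 in Ghcre and 193 in whole gland. Chromogranin A (Chga) stood at 353, 54.1 and 122. Chromogranin B (Chgb) was at 441 in Lhbcre and 558 in Ghcre. The proconvertases Pcsk2 (27.7 and 2.96) and Pcsk1 (40.3 and 8.43) were 4-fold higher in Lhbcre, Pcsk1 only on annotated transcripts, since with assembled ones it was 40.3 and 17.9. Ptprn2, a dense-core vesicle protein, stood at 15.3 in Lhbcre and 96.8 in Ghcre, and the Lhbcre value was 59.5 once assembled transcripts were added. Genes of the release machinery lay on both sides of 0. Of 25 exocytosis genes, 17 were listed and 16 reached 1 scaled FPKM, with a median log2 difference of 0.05. Of these, 3 were at least 2-fold higher in Lhbcre and 1 in Ghcre. Over all protein-coding genes above 0 in both libraries the shares were 10.4% and 5.82%. Snap25 stood at 51.9 and 39.1 and Syt4 at 37.6 and 36.1. Sv2a was the 1 member 4-fold apart (4.62% of all protein-coding genes in that direction), at 17.5 and 1.15. It was 17.5 and 9.16 with assembled transcripts. Doc2b, a calcium sensor for release, was higher in Ghcre, at 8.73 against 1.83.

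Receptor signalling lists had medians near 0 with a few members far apart. Of 18 genes of GnRH receptor signalling at 1 scaled FPKM or more, the median log2 difference was -0.24. Rgs4 was the 1 member 4-fold higher in Lhbcre (4.62% of all protein-coding genes), and Plcb4 the 1 higher in Ghcre (2.34%), at 17.3 against 2.77. The Plcb4 difference was gone with assembled transcripts (17.3 against 18.7). The G protein Gnaq stood at 11 and 6.45. Of 21 genes of cAMP and GHRH receptor signalling the median was -0.14. There the adenylyl cyclases divided, Adcy8 being higher in Lhbcre and Adcy2 in Ghcre (4.82 against a listed 0, or 13.9 against 5.83 with assembled transcripts), while Adcy6 stood at 33.0 and 39.5. Gnas, the stimulatory G protein, stood at 1164 in Lhbcre and 725 in Ghcre.

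Among 18 activin, inhibin and TGF-beta family genes the median log2 difference was 0.67 on annotated transcripts and 0.14 with assembled ones. Inhbb was the 1 member 4-fold higher in Lhbcre, against 4.62% of all protein-coding genes. The activin receptor Acvr1b stood at 7.76 in Lhbcre and 3.45 in Ghcre, and Acvr1c at 0.586 and 1.53, or 0.857 and 4.46 with assembled transcripts. Among 25 pituitary transcription factors, 5 were 4-fold higher in Lhbcre (4.62% of all protein-coding genes) and 1 in Ghcre (2.34%), with a median of 0.73, or 0.19 with assembled transcripts. Eya1, a transcriptional coactivator and phosphatase, stood at 16.8 and 0.64, or 48.2 and 9.66 with assembled transcripts. Myt1l was the 1 factor 4-fold higher in Ghcre, at 13.7 against 2.34, and Lhbcre held 10.8 once assembled transcripts were added.

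Ion channels were spread on both sides of 0. Of 26 potassium channel genes at 1 scaled FPKM or more, the median log2 difference was -0.19, with 12 higher and 14 lower in Lhbcre. The leak channel Kcnk3 stood at 6.09 in Lhbcre and 0.565 in Ghcre, and the small-conductance channel Kcnn3 at 3.22 and 0.491. In the other direction the voltage-gated Kcna2 stood at 1.47 and 4.76 and the ERG-type Kcnh6 at 2.54 and 7.77, though Kcnh6 was 9.80 and 7.77 with assembled transcripts. Kcnt1 was listed at 0 in Ghcre against 7.57, and with assembled transcripts the values were 4.73 and 11.2. The L-type calcium channel Cacna1d stood at 5.14 in Lhbcre and 19.8 in Ghcre, or 16.6 and 33.5 with assembled transcripts. Among 12 neurotransmitter receptors the median was 0.55, with the AMPA receptor subunit Gria2 at 19.9 and 7.07 and the nicotinic subunit Chrnb2 at 17.6 and 7.84.

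In the Wnt list the receptor Lrp5 stood at 6.80 in Lhbcre and 0.482 in Ghcre, whereas Wnt10a, the receptors Ror2 (1.36 and 5.94) and Fzd5 (2.84 and 7.14) were higher in Ghcre. Its median over 12 genes was 0.70 on annotated transcripts and -0.12 with assembled ones, so the list as a whole had no settled side. In the Notch list, median 0.54 over 12 genes, Hes6 stood at 30.8 and 5.93 and the ligand Dll1 at 3.09 and 0.169, while Dlk1, a noncanonical member, was on the Ghcre side. Of 22 axon guidance and adhesion genes, 19 had the higher level in Lhbcre, and the median was 0.67, or 0.27 with assembled transcripts. Of the 22, 5 reached 1 scaled FPKM in Lhbcre only and 1 in Ghcre only. In this list 1 member was 4-fold higher in Lhbcre (4.62% of all protein-coding genes), and it was not so with assembled transcripts. Ntn4, a netrin, stood at 3.55 and 0.112, and Reln, the secreted glycoprotein reelin, at 19.9 and 4.31 with 0.262 in whole gland. Of 21 IGF axis genes, 15 were listed and 8 reached 1 scaled FPKM, 3 of them in Lhbcre only and 1 in Ghcre only. Of the 8, 7 had the higher level in Lhbcre, and Pappa2 was the 1 with the higher level in Ghcre. Igfbp3 stood at 7.91 and 1.11, both below the 33.6 of whole gland, and Igfbp2 at 4.25 and 0.567.

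Lists of protein folding, stress and cell cycle genes had medians slightly below 0, and close to 0 with FPKM as deposited. Of 23 endoplasmic reticulum folding genes, 16 had the higher level in Ghcre, and the median log2 difference was -0.35, or -0.14 with assembled transcripts. The chaperone Hspa5 stood at 197 in Lhbcre and 190 in Ghcre, and Xbp1 at 27.5 and 36.7. Ddit3 was listed at 0 in Lhbcre and at 59.9 in Ghcre, and also at 0 in whole gland. Sel1l stood at 1.98 and 14.4 but at 30.1 and 14.4 with assembled transcripts. Of 21 immediate early and heat shock genes the median was -0.29. Fos stood at 133 and 171, Jun at 55.7 and 82.2, and the near-identical Hspa1a and Hspa1b, which share reads, at 228 and 417 and at 217 and 398. Of 9 cell cycle genes, 8 had the higher level in Ghcre, and their levels were low, Top2a at 1.2 and 2.2.

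**Figure D5:**
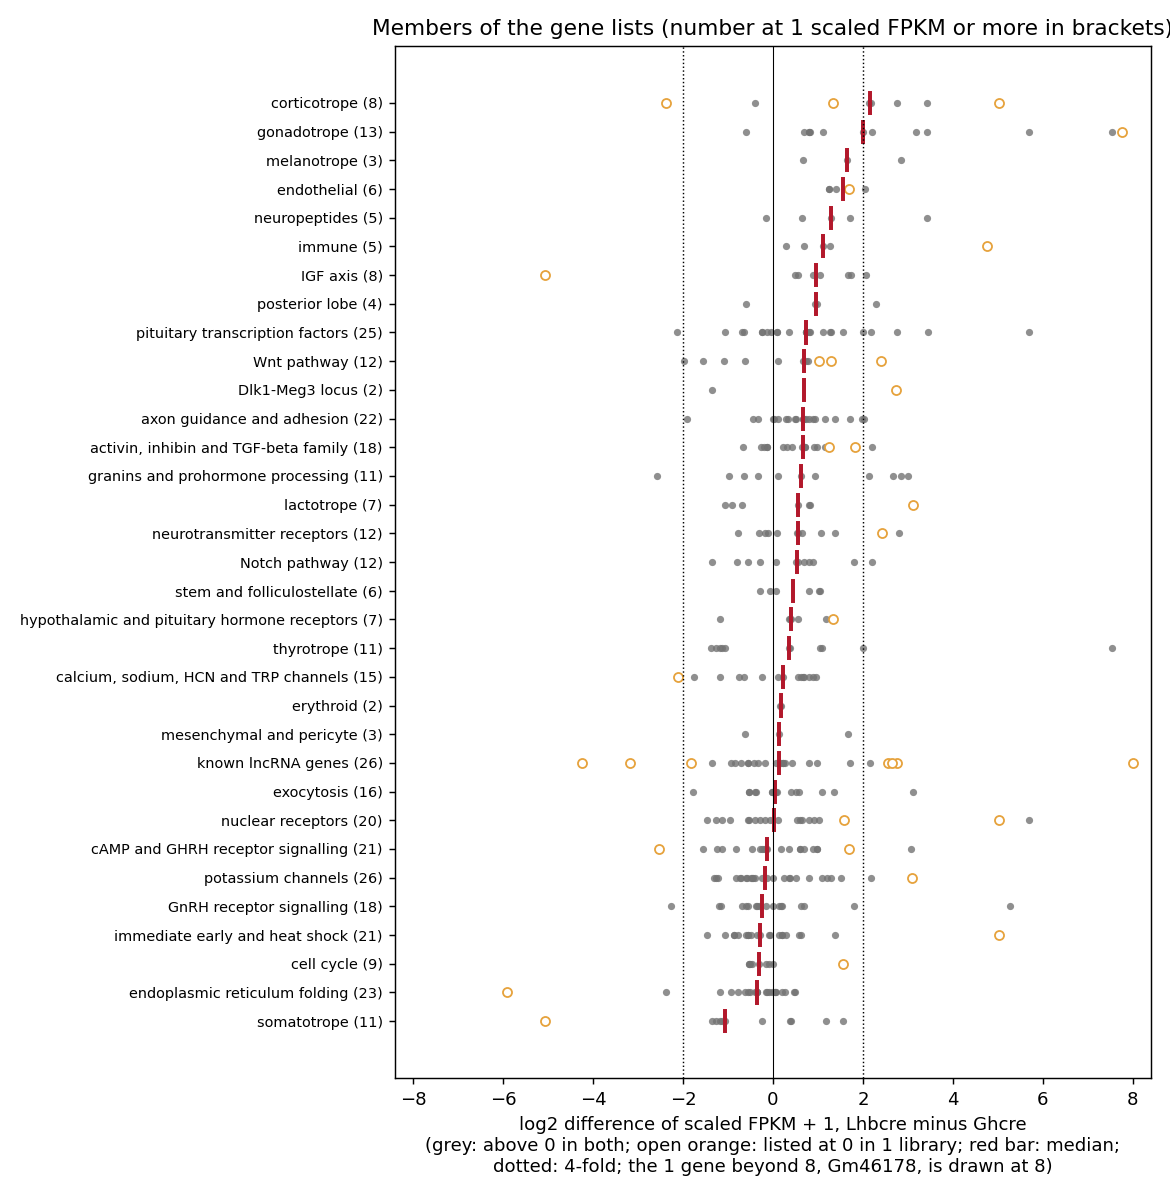
Log2 difference (Lhbcre minus Ghcre) of each listed gene at 1 scaled FPKM or more, 1 row per list, with grey points for genes above 0 in both libraries, open orange points for genes listed at 0 in 1 and a red bar at the median. On these annotated transcripts the corticotrope and gonadotrope lists have the highest medians (2.16 and 2.0) and the somatotrope list the lowest (-1.06), whereas with assembled transcripts added they are 1.42, 2.0 and -0.24 and the somatotrope median is no longer the lowest.

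Long non-coding RNA genes, which the ribosomal depletion was chosen to retain, gave few differences that held on both measures. Of 1043 at 1 scaled FPKM or more, 39 were 4-fold higher in Lhbcre (3.74%) and 24 in Ghcre (2.3%), and over the 801 above 0 in both, 3 (0.375%) and 0. With assembled transcripts added, 2 remained. Rmst, a neural lncRNA, stood at 3.89 in Lhbcre and 0.0997 in Ghcre, and at 19.9 and 1.39 with assembled transcripts. Gm23952 stood at 4.17 and 0.0821. The most abundant one, Gm46178 (chromosome 1, 190853099 to 190859201), was listed at 13074 in Lhbcre and at 0 in Ghcre, but with assembled transcripts it was 13074 and 16647, which turned the order around. Gas5 stood at 57.8 and 94.9, Neat1 at 6.69 and 8.69, and Norad at 68.5 and 64.9. Zfas1 (18.0) and 1700122H20Rik (8.04) were measured in Ghcre and listed at 0 in Lhbcre with or without assembled transcripts, and Gm35664 was the reverse, at 5.30 in Lhbcre and 0 in Ghcre.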

How the data were processed

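The authors deposited 1 Cufflinks isoform table per library, with FPKM, its bounds, transcript length and coverage. FastQC, Bowtie2, Cufflinks and mm39 come from the submitters' processing notes, without versions. The deposited coverage signal divided by FPKM was 5.97 in Lhbcre and 7.32 in Ghcre, used as relative depth. Read numbers and strandedness are not stated in the labels, so reads of overlapping or antisense genes cannot be told apart. FPKM was summed by gene name with pandas 2.3.3 and divided by 0.967 (Lhbcre) or 0.758 (Ghcre), the median ratio to the geometric mean over the 5808 genes with at least 1 FPKM in each of the 6 libraries. The differences used a pseudocount of 1. Unnamed transcripts of 200 nt or more were added where a locus held 1 named gene. The call rule was checked on simulated data with known changes and counting noise only. Those data held no error of transcript assignment and no difference between pools, so they test the rule and not the calls made here. Biotypes came from RefSeq and GENCODE annotations of GRCm38, with 1545 names unmatched.

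The genes named were the markers, members of 33 gene lists, and the 12 protein-coding and 8 lncRNA genes furthest apart in each direction on both measures. The members and lists were chosen with earlier results of these data known. Some members of the lists are not reported here by name.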

Additional observations from a re-analysis of the deposited data

How the results depend on the processing

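With 1 library per side no replicate could be left out. No paired analysis was possible because each side is a single pool, from a different mouse line. Main counts were 475 genes 4-fold higher in Lhbcre and 591 in Ghcre. They were 1195 and 1060 with a pseudocount of 0.1, 89 and 254 with 5, 126 and 43 over genes above 0 in both, and 271 and 914 with equal sums. At 2-fold they were 1556 and 1456, and at 8-fold 171 and 369. A filter of none or of 5, FPKM as deposited, the ratio over these libraries, status OK rows and assembled transcripts each left both counts within 1.5 times. With 3 alternatives chosen after seeing the data, the Ghcre count was 241 for transcripts of 200 nt or more and 183 for protein-coding genes, and both counts, 83 and 15, were lower for genes above 0 in both and 4-fold apart with assembled transcripts. With FPKM as deposited, the median of all genes was 0.30, and the list medians of GnRH receptor and cAMP signalling, potassium channels and immediate early genes became positive, at 0.07, 0.17, 0.08 and 0.04. Among listed and named genes 4-fold apart, adding assembled transcripts reversed 8, whose log2 differences became -1.68 (Airn), -0.51 (Begain), 1.01 (Crhbp), -1.18 (Edil3), -0.35 (Gm46178), -0.37 (Oip5os1), 0.11 (Plcb4) and 1.01 (Sel1l). Genes under 4-fold, such as Pou1f1, Egr1, Foxo1 and Kcnh6, also changed side. The cause was not tested.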

Other observations

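Begain, in the imprinted domain of Dlk1, was listed at 5.70 scaled FPKM in Lhbcre and 0 in Ghcre, and at 5.70 and 8.52 with assembled transcripts, while Dlk1 itself stood at 164 and 423 on both measures. The nuclear receptor list of 20 genes had a median log2 difference of 0.02. Nr5a1 and Nr4a1 were the 2 members 4-fold higher in Lhbcre (4.62% of all protein-coding genes), Nr4a1 on annotated transcripts only. Nr4a2 stood at 3.17 in Lhbcre and 10.5 in Ghcre, or 9.38 and 12.7 with assembled transcripts, and the thyroid hormone receptor Thra at 21.7 and 24.5. Of 34 neuropeptide genes, 24 were listed for both libraries and 5 reached 1 scaled FPKM. Among these were Penk, the enkephalin precursor, at 8.72 and 1.95, and Npff at 4.88 and 1.4. The MHC class I light chain B2m stood at 44.7 in Lhbcre and 125 in Ghcre, on the side opposite to the MHC class II chain Cd74, and was picked out after its value was seen. The lysosomal sulfatase Arsb, also picked out afterwards, stood at 24.6 and 73.1, against 12.5 in whole gland.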
